A study of Mus musculus with 8 samples.

Results

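The 42 genes described here encode the machinery of mitosis and of the G2 to M transition: cyclins and Cdk1, mitotic kinases, the spindle checkpoint, the kinetochore, spindle motors, cytokinesis proteins and condensin. The rule names them by symbol and uses no measured value, but it was written with earlier results of these data known. All 42 symbols were found among the 32108 genes of the deposited table, and all 42 passed the filter of at least 1 CPM (a gene's reads, scaled to a library sum of 1000000) in at least 2 libraries, which left 15358 genes. Their levels lay between 6.88 and 249 CPM in every library, far above the 0.149 to 0.155 CPM that 3 reads represent.

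The cells were 4F2A mouse embryonic fibroblasts (MEFs), in which doxycycline switches on a cassette coding for Oct4, Sox2, Klf4 and c-Myc, the reprogramming factors. They were harvested on days 2, 4, 6 and 8 of doxycycline (D2 to D8), and each day has 2 libraries of bulk RNA-seq. All of them stem from male homozygous 13.5 dpc embryos, and their medium held doxycycline at 2 µg/mL from day 0, LIF at 1000 U/mL and 15% KnockOut Serum Replacement. The titles call each sample a control, and no library from day 0 or from cells without doxycycline is analysed here, so every change is between days of induction. The labels speak of parallel replicates and do not say whether cultures or embryos differed, so the p-values rest on a spread between libraries that may be technical.

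Each library held 19409936 to 20161022 counted reads. The 15 fibroblast markers were all detected, with a summed level of 26862 to 45621 CPM, highest in the D4 libraries. Most of that sum was Col1a1, Col1a2 and Col3a1, while Vim, Thy1, Twist2 and S100a4 were highest in D2. Dcn, Lum, Postn and Pdgfra had their highest means in D8. Their D8 means were 1781, 844, 786 and 84.9 CPM, against D2 means of 204, 11.3, 189 and 11.0 CPM. The 10 markers of pluripotent cells summed to 0.774 to 5.47 CPM. Epithelial markers summed to 39.7 to 178 CPM and were highest in D8, mainly through Krt8. Cdh1 had similar means in D6 and D8, 37.3 and 36.6 CPM, both above its D2 mean of 5.07 CPM. By mean, Krt19 and Krt7 were instead highest in D2, where Krt19 stood at 31.1 CPM, and the D8 mean of Krt19 was 4.14 CPM. Neural markers ran from 219 to 503 CPM and were highest in D2 through Nes and Tubb3, while Map2 was highest in D4 and Dcx in D8. Endothelial markers ran from 72.7 to 168 CPM, mostly through Tek, with day means of 65.3 to 162 CPM. Muscle markers ran from 12.9 to 67.9 CPM and were highest in D2, mostly through Acta1. The mean of Acta1 was 58.1 CPM in D2 and 10.6 CPM in D4, and that of Des 6.92 and 1.28 CPM. Myod1 was at 0 in every library. Macrophage and blood markers ran from 87.3 to 135 CPM. The part of these markers in the results below was not tested.

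In a dividing cell, cyclin B with Cdk1 drives entry into mitosis, Plk1 and the Aurora kinases build the spindle, and the checkpoint holds the anaphase-promoting complex until every kinetochore is attached. Separase then cuts cohesin, and the central spindle directs the cleavage furrow. Most of these genes are transcribed in G2 and M under the MuvB complex with B-MYB and FOXM1, which acts through the CHR element, often together with NF-Y bound at a CCAAT box. In resting cells the DREAM form of the complex represses them through the same element. In bulk RNA a lower share of cells in mitosis and less RNA per cell cannot be told apart.

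Promoter letters were examined because the genes moved together between days. RefSeq windows (build GRCm38.p6, 250 bases before to 50 after the start of a RefSeq transcript) existed for 35 of the 42 genes; Ccna2, Foxm1, Aurkb, Incenp, Kif20a, Tpx2 and Smc4 had none. That start lay within 100 bases of the GENCODE gene start for 31 of the 35; the others were Cenpa, Mad2l1, Kif4 and Kif2c, and in Kif2c it lay 3867 bases inside the gene. The CHR letters TTTGAA, on either strand, stood in the window of 26 of the 35 (74.3%), against 14.7% of 10963 tested genes with a window and 20.2% of all 27025 genes with one. The NF-Y letters CCAAT, on either strand, stood in 25 of 35 (71.4%), against 42.9% of the tested genes and 41.1% of all genes. Both stood in 22 of 35 (62.9%), against 6.26% and 7.97%. The 2 motifs can overlap by at most 1 base, and a match is a description of the window, not a bound site.

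Stretches of 135 bases, from 110 before to 25 from the start, follow for 7 of the genes on the strand of the gene, with the CHR and NF-Y letters of either strand in capitals. Cdk1 (chr10:69352888-69353022) has each motif more than once, Ccnb2 (chr9:70421530-70421664) has a row of CCAAT boxes before its CHR letters, and Cdc20 (chr4:118437319-118437453) and Racgap1 (chr15:99651632-99651766) stand for genes that ended lower in D8 than in D2. Kif11 (chr19:37376272-37376406), Cenpf (chr1:189688062-189688196) and Nusap1 (chr2:119618188-119618322) stand for genes that ended higher, and Nusap1 has neither motif in its window.
Cdk1: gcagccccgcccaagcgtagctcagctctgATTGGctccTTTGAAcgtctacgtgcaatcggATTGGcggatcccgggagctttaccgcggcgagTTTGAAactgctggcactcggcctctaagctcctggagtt
Ccnb2: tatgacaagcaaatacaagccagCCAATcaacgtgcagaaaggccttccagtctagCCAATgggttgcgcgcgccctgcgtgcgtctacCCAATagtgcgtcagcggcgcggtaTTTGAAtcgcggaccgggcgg
Cdc20: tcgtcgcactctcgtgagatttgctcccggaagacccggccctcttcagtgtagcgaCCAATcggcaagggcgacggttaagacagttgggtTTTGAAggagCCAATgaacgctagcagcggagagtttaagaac
Racgap1: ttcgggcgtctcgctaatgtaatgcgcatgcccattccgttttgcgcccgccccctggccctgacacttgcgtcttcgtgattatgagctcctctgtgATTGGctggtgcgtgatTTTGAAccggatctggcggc
Kif11: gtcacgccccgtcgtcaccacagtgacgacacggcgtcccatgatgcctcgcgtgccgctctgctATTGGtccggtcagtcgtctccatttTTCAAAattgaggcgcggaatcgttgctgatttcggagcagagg
Cenpf: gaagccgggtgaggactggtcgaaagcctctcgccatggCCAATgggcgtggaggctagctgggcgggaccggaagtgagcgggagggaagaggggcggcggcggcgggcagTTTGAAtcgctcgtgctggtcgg
Nusap1: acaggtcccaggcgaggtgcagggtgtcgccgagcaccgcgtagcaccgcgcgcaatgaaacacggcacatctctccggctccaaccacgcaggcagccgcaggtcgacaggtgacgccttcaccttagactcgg

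**Figure D1:**
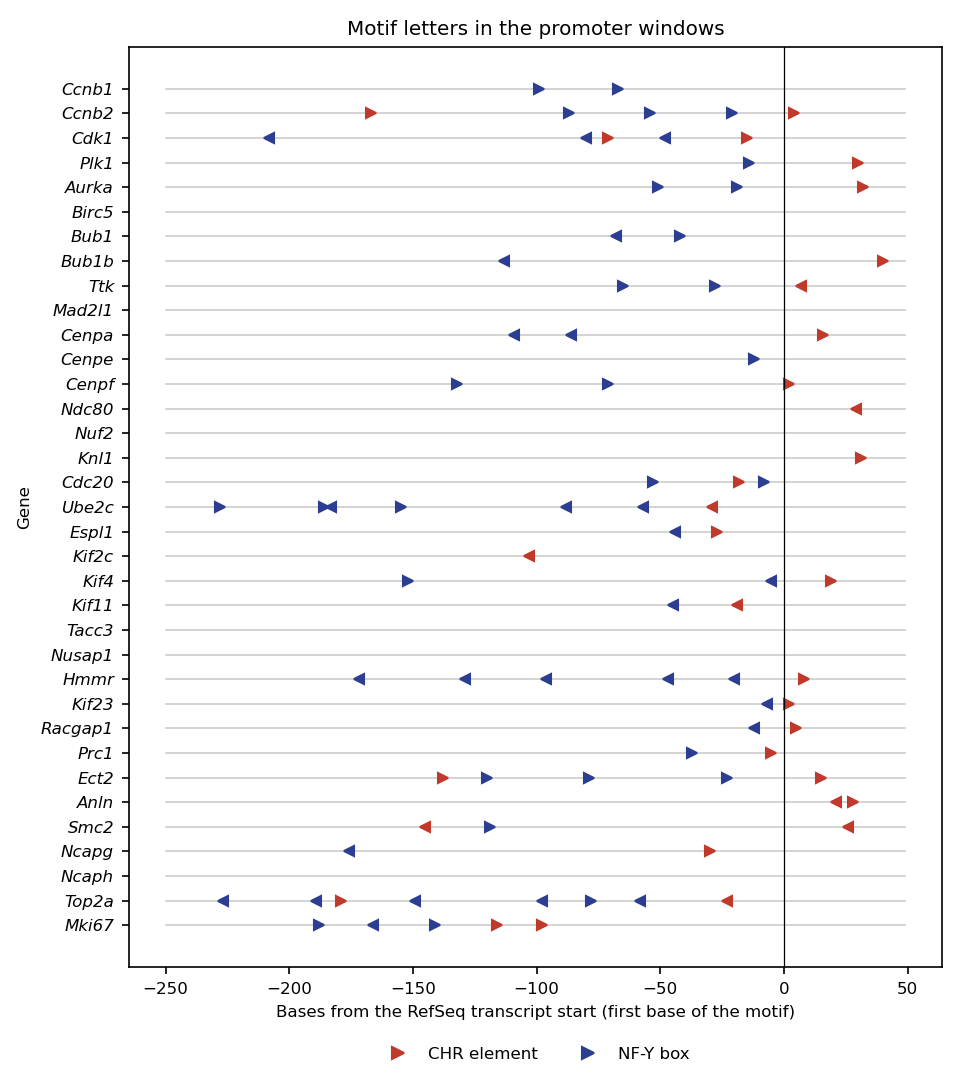
Position of the CHR letters (red) and the NF-Y letters (blue) in the RefSeq promoter windows of the 35 genes that have a window, in bases from the transcript start of each window; triangles point right for the strand of the gene and left for the other strand. CHR letters occur in 26 genes, and Birc5, Mad2l1, Nuf2, Tacc3, Nusap1 and Ncaph have neither motif.

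Most of the 42 genes rose in D4 against D2, most fell in D6 against D4, and many fell again in D8 against D6. Their summed level was 1992 and 2244 CPM in D4, against 1496 and 1488 CPM in D2. It was 1594 and 1726 CPM in D6 and 1225 and 1402 CPM in D8, so the D8 libraries lay below those of every other day. By mean CPM, D4 was the highest day for 41 genes and D2 for the remaining gene, Anln. D8 was the lowest day for 29 genes and D2 for 13. The moderated F test of limma called a difference between days for 42 of 42, against 80.4% of all tested genes.

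**Figure D2:**
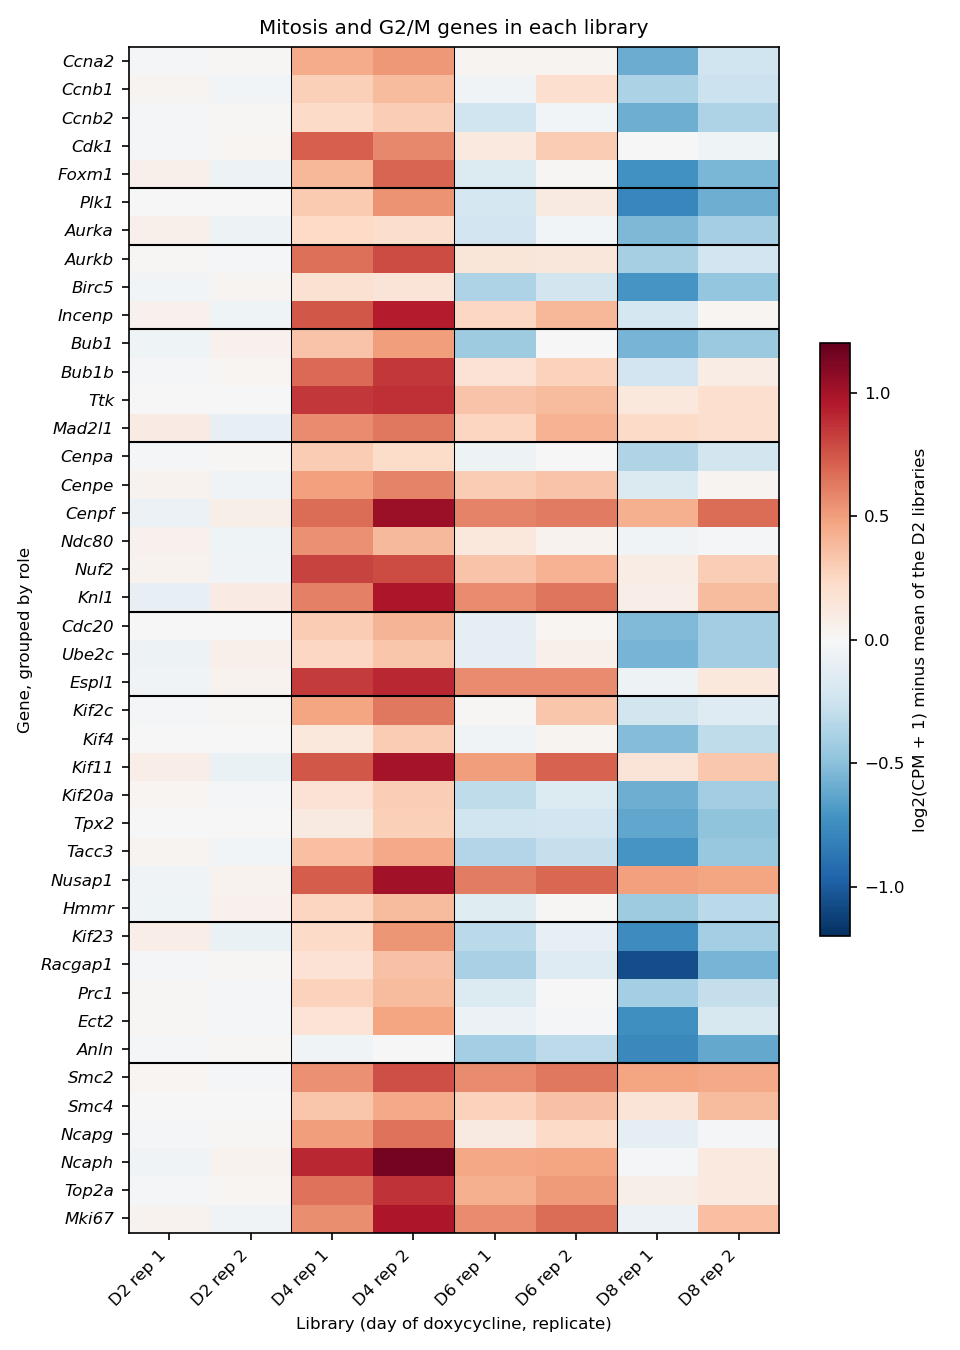
Level of each of the 42 genes (rows, grouped by role) in each of the 8 libraries (columns), as log2(CPM + 1) minus the mean of the D2 libraries. The D4 columns are the reddest, and in D8 a block of kinase, APC/C pathway and cytokinesis genes is blue while Cenpf, Nusap1, Smc2 and Smc4 stay red.

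By limma's moderated test on log2(CPM + 1), with Benjamini-Hochberg adjustment over all 15358 tested genes, 37 of the 42 genes rose and 0 fell in D4 against D2. Over all tested genes 40.9% were called higher and 21.7% lower. Groups did not overlap for 41 of the 42 (97.6%), but neither did they for 81.3% of all tested genes, in either direction. At an unadjusted p under 0.05 the counts were 39 higher and 0 lower. The median change was 0.48 on the log2 scale, against 0.11 over all tested genes. The split of all called genes moved with the scaling: 65.3% were higher as deposited, 52.6% (median-of-ratios scaling) or 47.1% (quantile normalization). The genes called higher numbered 30 and 26 of 42 under those scalings, with 0 called lower under either. The summed fibroblast markers, mostly collagen RNA, were also higher, at 42249 and 45621 CPM in D4, against 26862 and 26917 CPM in D2. Of the 15 markers, 11 were called higher and 3 lower (Vim, Thy1 and S100a4). The part of these markers was not tested.

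In D6 against D4, 34 of the 42 fell and 0 rose, against 12.6% of all tested genes called lower and 25.2% higher. The median change was -0.40, against 0.07 over all tested genes, of which 66.7% of those called were higher as deposited, 46.9% (median-of-ratios scaling) or 47.7% (quantile normalization). The unadjusted counts were 38 lower and 0 higher, and without D6 replicate 1 the count called lower was 22. In D8 against D6, 25 fell and 0 rose, against 4.39% lower and 4.72% higher over all tested genes, with a median of -0.34, against -0.00096 over all tested genes. The unadjusted counts there were 35 lower and 0 higher. The count of 25 was the least stable, at 1 with no filter on low values, 9 with eBayes without trend, 3 without D8 replicate 1 and 6 without D6 replicate 2. In D8 against D4, which spans both steps and shares their libraries, 41 fell and 0 rose, against 18.3% lower and 30.7% higher over all tested genes; the median was -0.70. At an unadjusted p under 0.05 the counts were again 41 and 0. Of all called genes 62.6% were higher as deposited, 47.3% (median-of-ratios scaling) or 46.5% (quantile normalization).

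D4 against D2 is the first step and D8 against D6 the last, and these share no library. The change of the last step minus that of the first was negative for all 42 genes and called lower for 42 of 42, with 0 called higher, against 33.5% lower and 17.8% higher over all tested genes. Its median was -0.80, against -0.09 over all tested genes. The counts at an unadjusted p under 0.05 were the same. Of all genes called in that test 34.7% were positive as deposited, 47.6% (median-of-ratios scaling) or 51.4% (quantile normalization). The largest difference of steps was that of the condensin gene Ncaph, -1.45 ± 0.13 (SE) on the log2 scale, and the smallest that of Anln, -0.31 ± 0.082 (SE).

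Within a day the genes moved as a block between replicates. Replicate 1 read lower than replicate 2 for 36 of 42 genes in D4, 40 in D6 and 38 in D8, but for 22 in D2. The median gap was -0.125, -0.106 and -0.163 on the log2 scale in D4, D6 and D8, against 0.023, 0.0044 and 0.0029 over all tested genes. The 42 genes are therefore not independent observations, and a count over them repeats in part what a single gene shows.

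**Figure D3:**
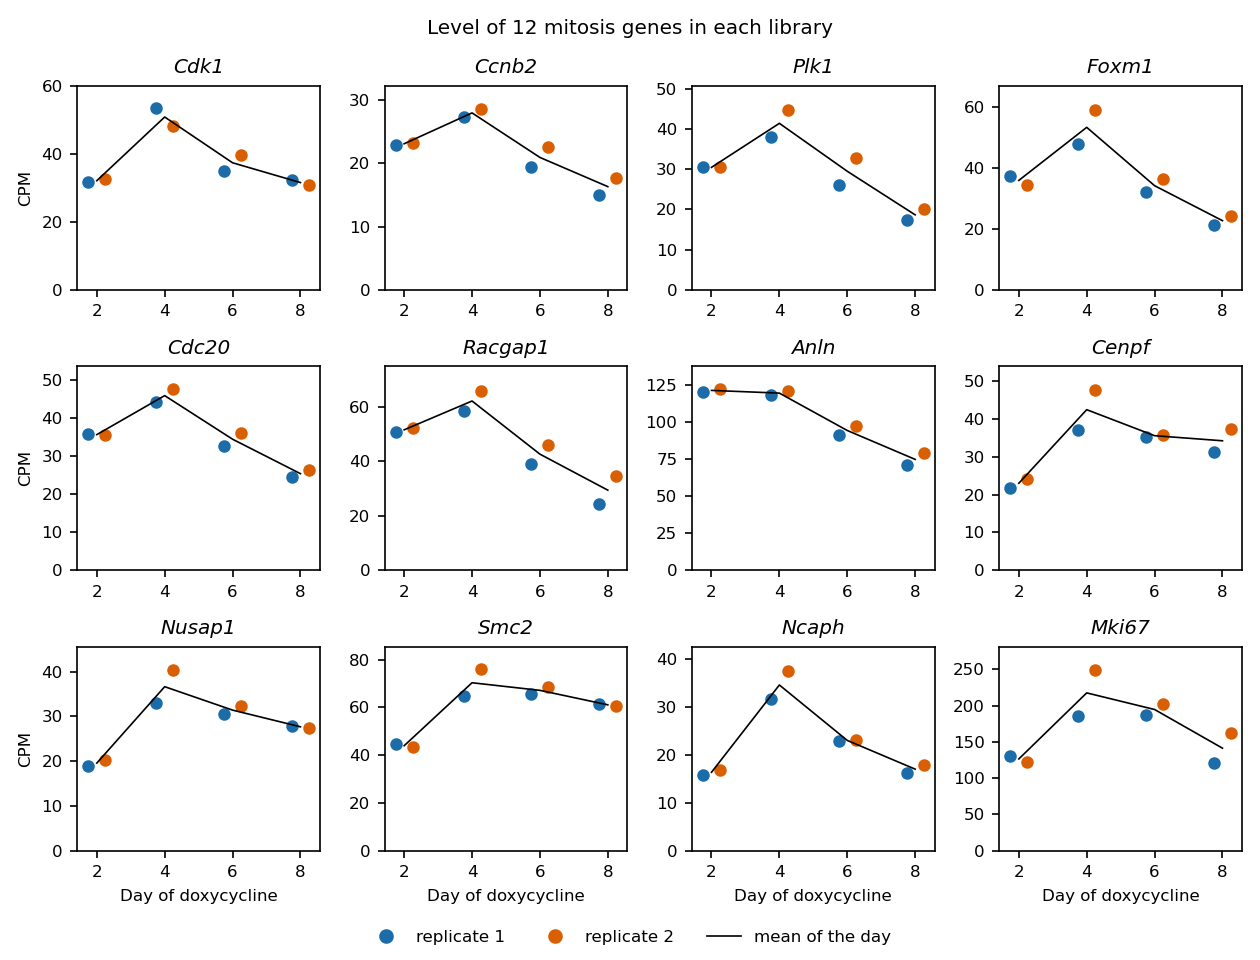
CPM of 12 of the genes in each library by day of doxycycline (2 points a day; the line joins the day means; each axis starts at 0). The peak is at D4 for 11 of them, Anln is level between D2 and D4, and in D4, D6 and D8 replicate 2 mostly lies above replicate 1.

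Cyclins, Cdk1 and Foxm1 made up the first group, and all 5 rose in D4, all 5 fell in D6 and 4 fell in D8 against D6. Cdk1, the kinase that starts mitosis, read 31.6 and 32.6 CPM in D2, 53.4 and 48.3 CPM in D4, 35.0 and 39.8 CPM in D6, and 32.2 and 31.0 CPM in D8. Both D4 libraries lay above all the others, and the D8 libraries overlapped those of D2. The change was 0.65 ± 0.074 (SE) in D4 against D2 (adjusted p = 5.9e-06) and -0.02 ± 0.074 (SE) in D8 against D2 (adjusted p = 0.78).

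Its cyclin partners were called lower in D8 than in D2. Ccnb2, a B-type cyclin, read 22.9 and 23.3 CPM in D2, 27.4 and 28.7 CPM in D4, 19.4 and 22.5 CPM in D6, and 15.0 and 17.6 CPM in D8, and no day overlapped another. Its D8 mean was 0.707 times the D2 mean (adjusted p = 3.6e-04), and its D4 mean 1.21 times (adjusted p = 0.022). Ccna2, the A-type cyclin of S and G2, changed by 0.48 in D4 and by -0.42 in D8, both against D2, and Ccnb1 by 0.33 and -0.32, all called. Foxm1, the transcription factor that activates late G2 genes, read 37.6 and 34.4 CPM in D2, 47.8 and 59.0 CPM in D4, 32.0 and 36.4 CPM in D6, and 21.3 and 24.2 CPM in D8. Its D6 libraries overlapped those of D2, while the D8 libraries were the lowest. Its fall in D8 against D4 was -1.19 ± 0.100 (SE) (adjusted p = 8.8e-07), the largest of the 42 in that comparison.

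The kinases Plk1 and Aurka were both called higher in D4 and lower in D8, each against D2. Plk1, which acts at centrosomes, kinetochores and the midbody, read 30.4 and 30.5 CPM in D2, 38.1 and 44.7 CPM in D4, 26.1 and 32.8 CPM in D6, and 17.3 and 20.004 CPM in D8. The D4 libraries were the highest and the D8 libraries the lowest, while D6 straddled D2. Its D8 mean was 0.612 times the D2 mean, -0.68 ± 0.11 (SE) on the log2 scale (adjusted p = 6.9e-05). Aurka, the spindle pole kinase, rose by only 0.22 ± 0.087 (SE) in D4 (limma adjusted p = 0.039). It fell to 15.1 and 16.7 CPM in D8, against 23.5 and 21.4 CPM in D2.

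The chromosomal passenger complex, which corrects wrong attachments and later moves to the midzone, had 2 of 3 genes called higher in D4 and 2 of 3 called lower in D8, each against D2. Aurkb, its kinase, read 15.1 and 14.9 CPM in D2, 24.3 and 26.6 CPM in D4, 16.7 and 16.6 CPM in D6, and 11.1 and 12.6 CPM in D8, with no overlap between days and a D4 change of 0.72 ± 0.085 (SE) (adjusted p = 7.6e-06). Incenp, its scaffold, read 26.4 and 24.7 CPM in D2, 43.3 and 49.9 CPM in D4, 30.6 and 33.9 CPM in D6, and 21.9 and 25.9 CPM in D8, so D8 overlapped D2 (change -0.10, adjusted p = 0.37). Birc5 (survivin), the subunit that docks the complex, read 23.8 and 25.1 CPM in D2, 27.9 and 27.3 CPM in D4, 18.7 and 20.8 CPM in D6, and 14.6 and 17.5 CPM in D8. Its D4 libraries lay above those of D2, but the change of 0.17 ± 0.090 (SE) was not called (adjusted p = 0.12); in D8 against D2 it changed by -0.58 (adjusted p = 6.1e-05).

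All 4 spindle checkpoint genes rose in D4 and fell in D6, and 0 of 4 were called in D8 against D6, where 3 fell at an unadjusted p under 0.05. Ttk (Mps1), the kinase at the head of the checkpoint, read 6.95 and 6.88 CPM in D2, 13.2 and 13.6 CPM in D4, 9.03 and 9.31 CPM in D6, and 7.63 and 8.10 CPM in D8. Days did not overlap, and the D8 change of 0.16 ± 0.090 (SE) against D2 was not called (limma adjusted p = 0.12). After quantile normalization that change turned to -0.26 and was called lower. Bub1, a checkpoint kinase at the kinetochore, read 16.7 and 17.9 CPM in D2, 22.2 and 24.9 CPM in D4, 12.6 and 17.3 CPM in D6, and 11.4 and 12.4 CPM in D8 and fell below D2 in D8 (change -0.50, adjusted p = 0.0023). Mad2l1 (Mad2), which holds Cdc20 inactive, went the other way, with 25.2 and 24.7 CPM in D8, against 23.0 and 19.9 CPM in D2 (change 0.21, adjusted p = 0.034). That call was lost under both other scalings, and its sign turned (-0.034) after quantile normalization. Bub1b (BubR1) was called in D4 (change 0.76) and not in D8 against D2 (change -0.07).

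All 6 centromere and kinetochore genes rose in D4 against D2 and fell in D8 against D4. Cenpf, a large kinetochore and nuclear matrix protein, read 21.8 and 24.2 CPM in D2, 37.2 and 47.7 CPM in D4, 35.3 and 35.8 CPM in D6, and 31.2 and 37.2 CPM in D8. Every later library lay above those of D2, and the lower D4 library and the higher D8 library both read 37.2 CPM. It rose by 0.55 ± 0.11 (SE) in D8 against D2 (adjusted p = 4.5e-04), the largest such rise of the 42, and kept its call under both other scalings. The microtubule-binding genes Nuf2, Knl1 and Ndc80 changed by 0.80, 0.79 and 0.47 in D4 against D2, and by 0.19, 0.23 and -0.03 in D8 against D2, where none of the 3 was called. Cenpe, a kinesin that carries chromosomes to the plate, changed by 0.55 in D4 and, uncalled, by -0.07 in D8. Cenpa, the centromeric histone, was the only member of this group called lower in D8 than in D2, with 20.02 and 22.1 CPM in D8, against 25.7 and 26.1 CPM in D2.

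Cdc20 activates the anaphase-promoting complex, Ube2c is its ubiquitin-conjugating enzyme, and Espl1 (separase) is the protease it releases. Cdc20 read 35.8 and 35.4 CPM in D2, 44.1 and 47.4 CPM in D4, 32.6 and 36.1 CPM in D6, and 24.3 and 26.3 CPM in D8; its D4 libraries were the highest and its D8 libraries the lowest. In D8 against D2 Cdc20 changed by -0.48 ± 0.071 (SE) (adjusted p = 4.6e-05), and Ube2c by -0.48 ± 0.079 (SE) (adjusted p = 9.8e-05). Espl1 read 11.0 and 11.8 CPM in D2, 21.1 and 22.1 CPM in D4, 17.3 and 17.3 CPM in D6, and 10.9 and 12.5 CPM in D8. It rose by 0.87 in D4 and overlapped D2 in D8 (change 0.03, limma adjusted p = 0.75). After quantile normalization Espl1 changed by -0.32 in D8 against D2 and was called lower.

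**Figure D4:**
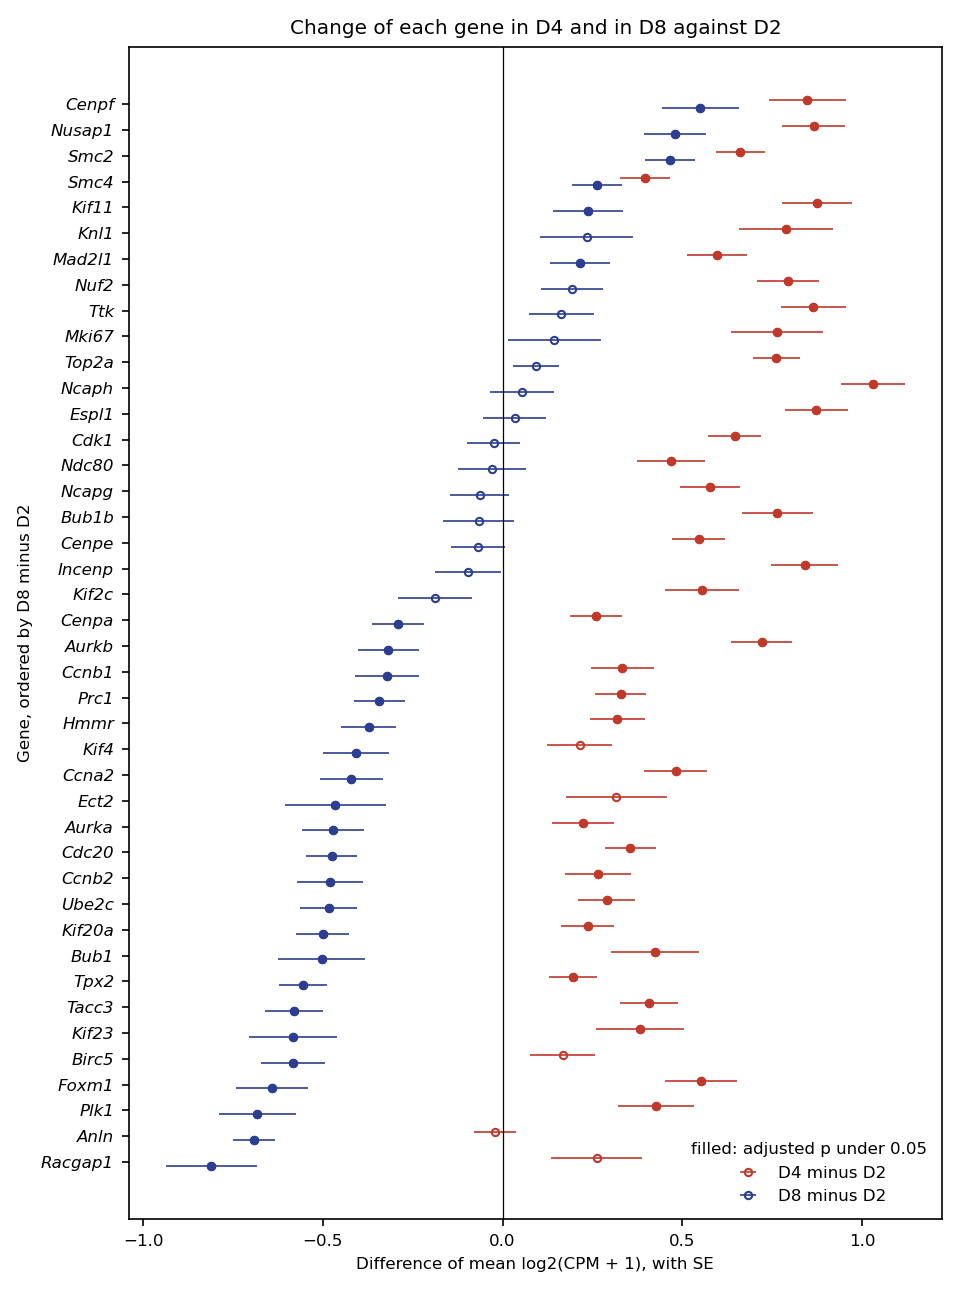
Difference of mean log2(CPM + 1), with its SE, in D4 against D2 (red) and in D8 against D2 (blue) for each gene, ordered by the second; filled points have an adjusted p under 0.05 by limma. All D4 points but Anln lie right of 0, while the D8 points run from -0.81 (Racgap1) to 0.55 (Cenpf).

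Of the 8 spindle motors and microtubule proteins, 7 rose in D4, and in D8 against D2 the counts were 2 higher and 5 lower. Kif11 (Eg5), the motor that pushes the spindle poles apart, read 26.8 and 24.1 CPM in D2, 43.3 and 51.8 CPM in D4, 36.4 and 42.1 CPM in D6, and 28.4 and 31.9 CPM in D8. Its D8 libraries lay above those of D2 and below those of D4. Its D8 change against D2 was 0.24 ± 0.097 (SE) (adjusted p = 0.043), lost under both other scalings. Nusap1, which bundles spindle microtubules near chromatin, read 18.9 and 20.2 CPM in D2, 32.9 and 40.3 CPM in D4, 30.5 and 32.2 CPM in D6, and 27.8 and 27.5 CPM in D8. All later libraries exceeded those of D2, and the D8 change of 0.48 ± 0.087 (SE) (adjusted p = 2.5e-04) kept its call under both other scalings.

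The other motors of this group ended lower or uncalled. Kif20a, the midzone kinesin that relocates Aurora B, read 53.7 and 52.0 CPM in D2, 59.7 and 65.2 CPM in D4, 42.5 and 47.1 CPM in D6, and 35.0 and 39.2 CPM in D8, with the D8 libraries the lowest. Tpx2, the activator of Aurora A, Tacc3, which crosslinks kinetochore fibres, Hmmr, a spindle pole protein, and Kif4, a chromokinesin, were called lower in D8 than in D2, with changes of -0.55, -0.58, -0.37 and -0.41. Kif4 was the only gene of the group not called in D4 against D2 (adjusted p = 0.055). Kif2c, a microtubule depolymerase, changed by -0.19 in D8 against D2 and was not called (adjusted p = 0.12).

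Central spindle and cytokinesis genes ended low. All 5 were called lower in D8 than in D2, while 2 of 5, Kif23 and Prc1, were called higher in D4. Racgap1, the GTPase-activating subunit of centralspindlin, read 50.9 and 52.3 CPM in D2, 58.4 and 66.0 CPM in D4, 39.2 and 46.1 CPM in D6, and 24.2 and 34.7 CPM in D8. Its D8 libraries lay below all others, and its change of -0.81 ± 0.13 (SE) in D8 against D2 was the largest fall of the 42 (adjusted p = 6.9e-05). Kif23, the motor of centralspindlin, changed by -0.58 in D8 against D2, Ect2, the exchange factor for RhoA that centralspindlin recruits, by -0.47, and Prc1, which crosslinks midzone microtubules, by -0.34. Anln (anillin), the scaffold of the contractile ring, read 121 and 123 CPM in D2, 118 and 121 CPM in D4, 91.6 and 97.5 CPM in D6, and 71.0 and 79.0 CPM in D8. It was the sole gene with overlapping D4 and D2 libraries (change -0.02 ± 0.058 (SE), adjusted p = 0.76), and it fell in each later step, to 0.616 times the D2 mean in D8 (adjusted p = 1.8e-07).

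Condensin, topoisomerase II and Ki-67, which shape and coat chromosomes, held no gene called lower in D8 than in D2. In D4 6 of 6 rose, and in D8 against D2 the counts were 2 higher and 0 lower, the same at an unadjusted p under 0.05; after quantile normalization Ncaph was called lower (adjusted p = 0.035). Smc2, a core ATPase of condensin, read 44.6 and 43.3 CPM in D2, 64.7 and 76.0 CPM in D4, 65.8 and 68.5 CPM in D6, and 61.6 and 60.6 CPM in D8, and every later library exceeded those of D2. Its change in D8 against D2 was 0.47 ± 0.069 (SE) (adjusted p = 4.4e-05), called under both other scalings. Smc4, its partner, read 76.9 and 76.6 CPM in D2, 97.1 and 106 CPM in D4, 93.2 and 98.0 CPM in D6, and 85.3 and 99.9 CPM in D8; it was the only gene not called in D8 against D4 (adjusted p = 0.13; 42 of 42 were called with median-of-ratios scaling), and its D8 rise against D2 (0.26) lost its call under both other scalings.

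The condensin I subunits Ncaph and Ncapg were called in D4 but not in D8, each against D2. Ncaph, the kleisin, read 15.8 and 16.9 CPM in D2, 31.5 and 37.5 CPM in D4, 22.9 and 23.1 CPM in D6, and 16.2 and 17.8 CPM in D8 and had the largest D4 rise of the 42, 1.03 ± 0.089 (SE) (adjusted p = 4.0e-07). In D8 it overlapped D2 (change 0.05, adjusted p = 0.61; -0.24 after quantile normalization). Ncapg, another condensin I subunit, changed by 0.58 in D4 and, uncalled, by -0.06 in D8. Mki67, which coats mitotic chromosomes and is a common proliferation marker, read 129.9 and 123 CPM in D2, 186 and 249 CPM in D4, 187 and 202 CPM in D6, and 120.2 and 162 CPM in D8. Its D4 replicates were far apart, and D8 straddled D2. Top2a, which untangles sister DNA, was tighter, at 168 and 195 CPM in D4 and 111 and 115 CPM in D8, against 104 and 108 CPM in D2.

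Over all 42 genes, D8 against D2 gave 6 higher, 22 lower and 14 uncalled, against 47.3% higher and 23.1% lower among all tested genes. Groups did not overlap for 32 of the 42 (76.2%), a smaller share than the 85.7% of all tested genes. The median was -0.30, against 0.17 over all tested genes. With median-of-ratios scaling and with quantile normalization, Cenpf, Nusap1 and Smc2 were the 3 genes called higher, and 28 and 32 were called lower. The split of all called genes moved with them, at 67.2% higher as deposited, 50.9% (median-of-ratios scaling) or 45.1% (quantile normalization). Without D8 replicate 2 the count of genes called higher was 3. By role, the median was 0.12 for the condensin group, 0.08 for the kinetochore and 0.05 for the checkpoint, all below the 0.17 of all genes, and -0.58 for cytokinesis and for the kinases Plk1 and Aurka.

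The promoter letters were found on both sides of that division. CHR letters stood in 3 of 5 windows of genes called higher in D8 than in D2, in 13 of 17 windows of genes called lower and in 10 of 13 windows of uncalled genes. Both motifs stood in 3 of 5, 12 of 17 and 7 of 13. Among the printed stretches, Cenpf carries CCAAT and TTTGAA as Ccnb2 and Cdc20 do. In D8 against D2 the first was called higher and the others lower.

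Levels of different genes were compared per kilobase of exon length, taken as the union of all annotated exons of a gene. That union can be longer than the RNA present (1868 bases for Cdc20, 6493 bases for Ndc80), so the order depends in part on the annotation. By the mean over the 8 libraries the order was led by Cdc20 at 18.9 CPM per kb, followed by Smc4 at 17.6, Mki67 at 16.9 and Top2a at 15.2 CPM per kb. Knl1, Ndc80 and Espl1 had the lowest, at 1.62, 1.7 and 1.77 CPM per kb. The order changed with the day: by day means Cdc20 led in D2 (19.04 CPM per kb) and D4 (24.5), Mki67 in D6 (19.3) and Smc4 in D8 (17.8). For 12 genes, exons overlap those of another gene, and whether counting used the strand is not given in the sources used here. Longest among them were the overlaps of Kif20a with Cdc23 (1271 bases), Ncapg with Lcorl (944 bases), Prc1 with Rccd1 (911 bases), Kif4 with Pdzd11 (832 bases) and Ube2c with Tnnc2 (592 bases), all on opposite strands, so reads there cannot be assigned with certainty.

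Other genes of the cell cycle were read from lists, with the same limma calls. Each count of 0 given for these lists was also 0 at an unadjusted p under 0.05. The shares over all tested genes to hold them against are 40.9% higher and 21.7% lower in D4 against D2, 30.7% and 18.3% in D8 against D4, and 47.3% and 23.1% in D8 against D2. Of 61 other mitosis genes, 53 rose and 1 fell in D4 against D2, and 50 fell and 2 rose in D8 against D4. In D8 against D2, 17 were higher (27.9%, below the share of all genes) and 15 lower (24.6%, close to it). Cdc25b, the phosphatase that activates Cdk1, had the largest rise of that list, with 45.5 and 52.7 CPM in D4, against 19.1 and 18.1 CPM in D2. The kinesin gene Kif20b read 21.9 and 26.3 CPM in D8, against 12.6 and 12.4 CPM in D2. The median of the list in D4 against D2 was 0.65, or 0.54 above the median of all tested genes.

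Genes of DNA replication and S phase (35) counted 30 higher and 0 lower in D4 against D2, 25 lower and 0 higher in D8 against D4, and 13 higher (37.1%) and 8 lower (22.9%) in D8 against D2, the last close to the share of all genes. Their median in D8 against D2 was 0.07, which is -0.09 relative to all tested genes. Rrm2, the small subunit of ribonucleotide reductase, was not called in D4 (adjusted p = 0.27) and fell to 44.1 and 52.5 CPM in D8, against 102 and 99.4 CPM in D2. CHR letters stood in 4 of 29 windows of these genes (13.8%), close to the 14.7% of tested genes, while 26 of 47 windows (55.3%) of the other mitosis genes held them.

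Cohesin and other condensin subunits (14) counted 13 higher and 0 lower in D4, and 10 higher and 1 lower in D8, both against D2. Ncapd2 of condensin I, with 42.6 and 52.98 CPM in D8 against 54.7 and 56.0 CPM in D2, was lower (adjusted p = 0.034), whereas Ncapd3 of condensin II, with 26.2 and 30.6 CPM in D8 against 18.8 and 19.9 CPM in D2, was higher (adjusted p = 1.5e-04). The 16 subunits and activators of the anaphase-promoting complex counted 7 higher (43.8%, close to the share of all genes) and 1 lower in D4 against D2, with a median of -0.03 relative to all tested genes. Ube2s, a ubiquitin-conjugating enzyme of that complex, was lower in D8, with 52.7 and 52.1 CPM, against 78.0 and 71.5 CPM in D2.

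The 22 tested regulators of the MuvB, MYB, RB and E2F families counted 15 higher (68.2%) and 2 lower (9.09%) in D4 against D2. In D8 against D2 they counted 10 higher (45.5%) and 5 lower (22.7%), both close to the shares of all genes. E2f2, an activator E2F, had 9.84 and 10.6 CPM in D8, against 1.34 and 0.80 CPM in D2. E2f8, a repressor E2F, had 5.51 and 5.88 CPM in D8, against 20.01 and 19.3 CPM in D2 (change -1.63 ± 0.085 (SE), adjusted p = 1.6e-09). Lin9, a MuvB subunit, read 12.5 and 12.2 CPM in D4, against 6.80 and 6.13 CPM in D2. Centriole and centrosome genes (13) counted 10 higher and 0 lower in D4 against D2.

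Among 11 inhibitors of cyclin-dependent kinases and p53 targets, 3 rose (27.3%) and 6 fell (54.5%) in D4 against D2, and 4 were higher (36.4%) and 5 lower (45.5%) in D8 against D2. Cdkn1c (p57), an inhibitor of cyclin-dependent kinases, read 24.8 and 25.4 CPM in D4, against 3.08 and 3.04 CPM in D2, and 29.5 and 45.6 CPM in D8. Cdkn2b (p15), an inhibitor of Cdk4 and Cdk6, read 43.7 and 40.1 CPM in D8, against 106 and 106 CPM in D2. The p53 targets Mdm2 and Btg2 were also lower in D8, with changes of -0.81 and -0.86 against D2. G1 cyclins and kinases (9) counted 5 higher and 0 lower in D4 against D2, with Ccne1, a cyclin of the start of S phase, at 49.2 and 48.7 CPM in D4, against 30.2 and 29.8 CPM in D2.

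**Figure D5:**
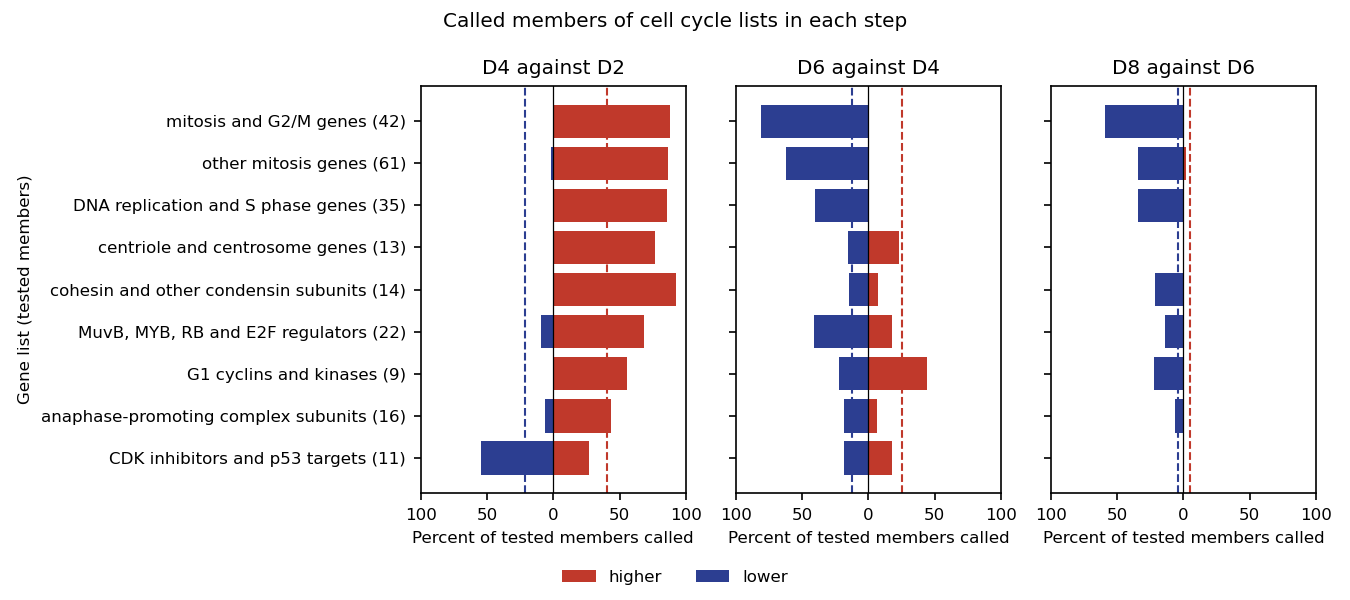
Percent of the tested genes of each list called higher (red, right) and lower (blue, left) by limma in each step; dashed lines give the percent over all tested genes. The 42 genes and the 61 other mitosis genes exceed the dashed lines in the higher direction in D4 and in the lower direction in D6 and D8. The other lists do so too, some by small margins, except centriole and centrosome genes and CDK inhibitors and p53 targets. DNA replication and S phase genes reach 85.7% higher in D4, 40% lower in D6 and 34.3% lower in D8.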

How the data were processed

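RNA-seq of 4F2A MEFs (2 libraries on each of D2, D4, D6 and D8) was read from the authors' deposited table of 32108 genes. That table is named for TPM, but the deposited values behave as CPM and were treated so. Each library sums to 1000000. All lower values, the only range checked, are whole numbers of hundredths of 1 step per library. That step, taken as 1 read, is the same for all genes, which division by length would not leave. If the values had been divided by length, the levels per kilobase would not apply. Whole reads (tolerance 0.02 reads) made up 53.2% to 54.8% of values, so no count test was run. Trimmomatic 0.39, featureCounts and mm10 are named per the submitters' processing notes; no source used here gives the aligner, annotation or strand setting. All columns were mapped to libraries, and 0 belonged to no sample. The floor of 3 reads covers counting error only.

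Symbols and exon lengths came from GENCODE release 21 (mm10) for 32029 identifiers. The filter kept genes that reached 1 CPM in 2 or more libraries. With limma 3.58.1 (R 4.3.3), a linear model with a coefficient per day was fitted to log2(CPM + 1), and eBayes with trend gave two-sided moderated tests on 4 residual degrees of freedom plus the prior. Benjamini-Hochberg adjustment covered the whole table of tested genes, with 0.05 as the threshold for a call. Every change given is a difference of mean log2(CPM + 1), which understates folds of low genes; folds are ratios of mean CPM. The fit was tested on simulated data. Promoter windows came from RefSeq, and motif letters were searched in Python 3.11.15. The genes, lists and tests were chosen with earlier results of these data known. Any of the 42 genes could be named, and of each other list up to 4 called genes with the largest change in D4 or D8 against D2. Alternatives covered the pseudocount, the filter, the scaling, the trend, the libraries fitted, a replicate block and leaving out each library.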

Additional observations from a re-analysis of the deposited data

Results flagged for a closer look

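The change in the last step (D8 against D6) was lower than the change in the first step (D4 against D2) for 42 of the 42 genes, by limma's test of that difference in the fit over all 8 libraries. The difference ran from -1.45 for Ncaph to -0.31 for Anln on the log2 scale. Over all tested genes 33.5% were called lower in the same test. The summed fibroblast markers, mostly collagen RNA, also rose in the first step, to 42249 and 45621 CPM in D4, against 26862 and 26917 CPM in D2. In that step 11 of the 15 markers were called higher and 3 lower, against 40.9% and 21.7% of all tested genes. The summed markers read 32357 and 35531 CPM in D8, against 32877 and 36236 CPM in D6. In that last step 4 of the 15 were called higher (Pdgfra, Dcn, Lum and Postn) and 1 lower (Twist2). Over all tested genes the shares were 4.72% and 4.39%. The part of the markers in the difference was not tested.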

How the results depend on the processing

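Of 3990 values of single genes under alternative settings, 3676 kept their direction and their side of the threshold, 237 lost a call, 73 gained one and 4 turned their sign; 22 of the values counted as kept were uncalled throughout and changed sign near 0. The 4 that turned did so in D8 against D2 after quantile normalization, where Ttk read -0.26, Mad2l1 -0.034, Espl1 -0.32 and Ncaph -0.24. Ttk, Espl1 and Ncaph, uncalled as deposited, were called lower there, and Mad2l1 lost its call. Counts of called genes stayed within 1.5 times of their value, with the following exceptions. In D8 against D6 the count called lower (25) was 1 with no filter on low values, which raised the genes tested to 25416, and 9 with eBayes without trend; leaving out a library gave 3 (without D8 replicate 1) to 28. In D6 against D4 the count called lower (34) was 22 (without D6 replicate 1) to 40 when a library was left out. In D8 against D2 the count called higher (6) was 3 with median-of-ratios scaling, 3 with quantile normalization, and 3 (without D8 replicate 2) to 8 (without D8 replicate 1) when a library was left out. The causes were not tested. A day left with 1 library is assumed to vary like the others. Deviations of same-numbered libraries correlated at -0.102 to 0.207 across all tested genes, so the numbers were not taken as pairs. Among the 42 genes alone, replicate 1 read lower for 36 in D4, 40 in D6 and 38 in D8. With a replicate block, 40 were higher in D4 against D2, 38 lower in D6 against D4 and 31 lower in D8 against D6. In D8 against D4, 41 were lower, in D8 against D2 7 were higher and 22 lower, and in the difference of steps 42 were lower. Depth did not limit these genes, since the lowest value, 6.88 CPM, stood far above the floor of 0.155 CPM; 2 libraries a day did limit the precision.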

Other observations

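Ratios of CPM were taken within a library between genes of the same complex, and between the kinesins Kif20a and Kif11. The scaling between libraries therefore does not enter, and a change of a ratio shows unequal change only. The ratios did not all move alike. Ncaph over Smc2, both condensin subunits, was 0.354 and 0.3897 in D2, 0.487 and 0.494 in D4, 0.348 and 0.337 in D6, and 0.263 and 0.293 in D8. The D4 libraries were the highest and the D8 libraries the lowest. Ncapg over Smc4 was 0.228 and 0.235 in D2, 0.264 and 0.270 in D4, 0.207 and 0.215 in D6, and 0.191 and 0.177 in D8, in the same order of days. Birc5 over Incenp, both of the chromosomal passenger complex, was 0.902 and 1.02 in D2, and between 0.547 and 0.674 in every later library. Kif20a over Kif11, the midzone and the pole-separating kinesins, was 2.00 and 2.16 in D2, 1.38 and 1.26 in D4, 1.17 and 1.12 in D6, and 1.23 and 1.23 in D8. Kif23 over Racgap1, the partners in centralspindlin, stayed between 0.582 and 0.769 over all 8 libraries, and its D2 and D4 libraries overlapped.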
